A study of Homo sapiens with 6 samples.

Results

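Collagen chain genes encode the polypeptides that wind in threes into collagen molecules, the main structural proteins of extracellular matrix. They were taken as every gene of the deposited count table whose symbol is COL, a number, A and a number, which gave 44 of 62754 genes. They fall into 11 fibrillar chains, 6 basement membrane chains, 10 FACIT chains (fibril-associated collagens with interrupted triple helices), 4 transmembrane chains, 5 chains of beaded filaments, 1 chain of anchoring fibrils, 3 chains of short-chain networks, 2 multiplexins and 2 others. Fibrillar collagens form the cables of connective tissue and of scars, FACIT collagens sit on the surface of those cables, and type IV collagen forms the sheet that underlies every tubule of the kidney. In kidney fibrosis the fibrillar chains are made largely by interstitial fibroblasts, while tubular epithelial cells contribute to the basement membrane they stand on.

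HK-2 is an immortalized epithelial cell line from the human proximal tubule, the segment of the nephron that takes up the platinum drug Cisplatin. All 6 libraries came from Cisplatin-treated HK-2 cells, of which 3 were transfected with negative control siRNA (CP+siNC) and 3 with siRNA against NAT10 (CP+siNAT10), a nuclear acetyltransferase of RNA and protein. The series has no library without Cisplatin, so the comparison concerns NAT10 siRNA in treated cells. Polyadenylated RNA was sequenced and counted per gene, with totals of 19321665, 21602988 and 19464027 counts in CP+siNC and of 20793709, 21531774 and 25192736 in CP+siNAT10. The labels do not say whether the libraries of a group came from separate cultures, and p-values then measure only the spread between these samples, which may be technical.

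NAT10 (ENSG00000135372) was measured at 76.1, 71.3 and 73.3 CPM (counts scaled to a common library size with TMM) in CP+siNC and at 41.2, 40.5 and 42.4 CPM in CP+siNAT10. The groups did not overlap, and the mean with NAT10 siRNA was 56.3% of the control level. This is a log2 fold change of -0.83 (standard error, SE, 0.0430), and the p from edgeR's quasi-likelihood test, adjusted by the Benjamini-Hochberg (BH) method over all 20127 genes tested, was 1.59e-15. Adjusted p-values given for genes are from that fit unless another setting is named beside them. An exact permutation test on a single gene cannot give a p under 0.10 when 3 libraries face 3.

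Every collagen chain gene had counts in at least 1 library. Levels were compared between genes as RPKM, CPM per kilobase of the gene length in the deposited table. The members spanned a wide range, from 56.8 RPKM for COL6A1 to 0.00140 RPKM for COL9A1 as means over the 6 libraries. COL6A1, COL7A1, COL6A2, COL4A1 and COL4A2 were the 5 highest per length and together held 86.6% of the collagen counts. With the length of the transcript that has the longest coding sequence in place of the deposited length, an alternative chosen after seeing the data, these remained the 5 highest, and COL4A2 moved from rank 5 to rank 2. COL18A1 followed at 6.58 RPKM and COL8A1 at 4.28 RPKM. The fibrillar chain with the highest mean over the 6 libraries, COL5A1, had 2.94 RPKM, although in CP+siNC alone COL27A1 was higher, at 2.21 RPKM against 1.89 RPKM. COL1A1, the chain best known from scar tissue, had a mean of 1.34 RPKM. COL1A2, whose product normally joins the COL1A1 chain in type I collagen, had 4 counts in all 6 libraries together.

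**Figure D1:**
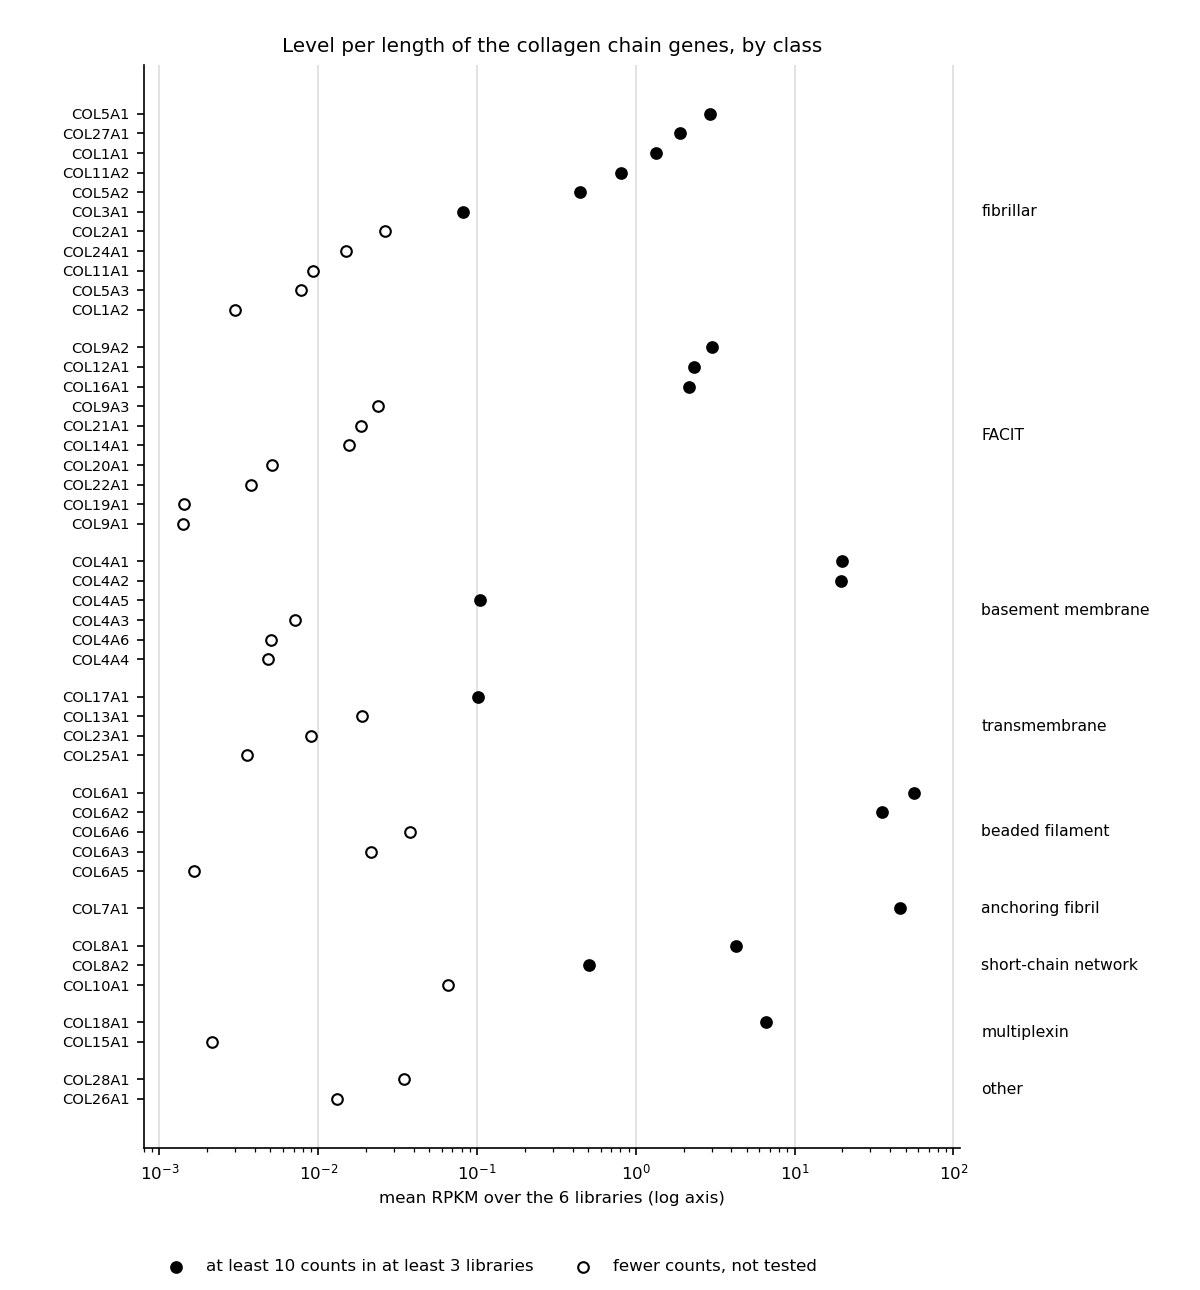
Mean RPKM of each of the 44 collagen chain genes over the 6 libraries, on a log axis, grouped by class; filled points had at least 10 counts in at least 3 libraries and were tested, open points had fewer. The highest points are the beaded filament chains COL6A1 and COL6A2, the anchoring fibril chain COL7A1 and the basement membrane chains COL4A1 and COL4A2.

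At least 10 counts in at least 3 libraries were found for 19 of the 44 genes, and these were compared between the groups. At an adjusted p under 0.05, 4 were higher with NAT10 siRNA, COL5A1, COL1A1, COL4A1 and COL4A2, which is 21.1% of those tested, where 21.3% of all tested genes were higher. In the other direction 6 were lower, COL27A1, COL12A1, COL16A1, COL6A1, COL6A2 and COL7A1, which is 31.6%, where 22.4% of all tested genes were lower. Adding a limit of 1 on the size of the log2 fold change, as drawn in the study's volcano plot, left COL5A1 among the higher genes, 5.26% of those tested, where 0.969% of all tested genes passed. No member was lower past both limits in the edgeR test, where 1.42% of all tested genes passed, and at an unadjusted p under 0.05 with no limit on size 7 were lower and 4 higher, where 25.45% of all tested genes were lower and 24.4% higher. The CPM values of the groups did not overlap for 12 members, 5 of them higher (26.3%) and 7 lower (36.8%) with NAT10 siRNA, where 25.2% of all tested genes were higher and 25.8% lower without overlap. Without the limit on size, the shares of higher members lay near those of all genes and the shares of lower members above them, and with it the share of higher members was above that of all genes through a single gene. Each share rests on at most 7 genes. The median log2 fold change of the 19 was -0.03 and that of all tested genes was 0.00357. With libraries scaled by total counts only, both medians moved up, to 0.0111 and 0.0443. Called members went in both directions, and the differences lay between classes and chains.

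**Figure D2:**
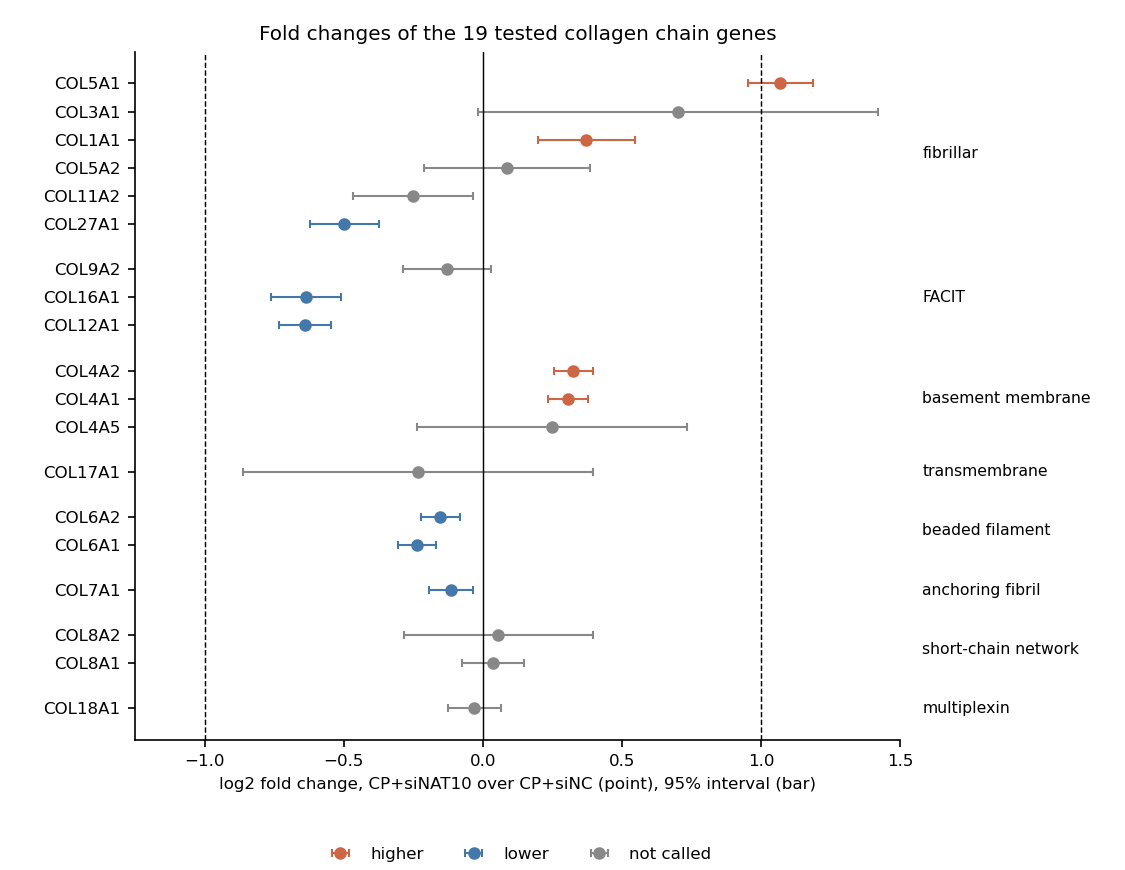
Log2 fold change of CP+siNAT10 over CP+siNC for the 19 tested collagen chain genes, by class, as a point with its 95% confidence interval; colour gives the call at an adjusted p under 0.05, and dashed lines mark a log2 fold change of 1 in size. COL5A1 lies at the upper line with an interval from 0.95 to 1.19, the FACIT chains COL12A1 and COL16A1 lie lowest, and COL4A1 and COL4A2 lie side by side.

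Of the 11 fibrillar genes 6 were tested, and they did not move together: COL5A1 and COL1A1 rose, COL27A1 fell, and COL11A2, COL5A2 and COL3A1 were not called. COL5A1 (ENSG00000130635, chromosome 9 from 134641803 to 134844843 on GRCh38) encodes the chain of type V collagen that starts fibril assembly and limits fibril width. It was measured at 19.1, 23.1 and 21.2 CPM in CP+siNC and at 44.3, 46.0 and 43.3 CPM in CP+siNAT10. All 3 libraries with NAT10 siRNA lay above all 3 controls, with a wide gap between the groups compared with the spread inside them. The means were 21.1 ± 2.03 and 44.5 ± 1.36 CPM (SD, n = 3 in each). The log2 fold change was 1.07 (SE 0.0572, 95% interval 0.95 to 1.19), with a quasi-likelihood BH-adjusted p of 3.01e-15, the smallest p of the 19. Tested against a 2-fold change with edgeR's glmTreat, COL5A1 had an unadjusted p of 0.0393 and did not pass after adjustment, as 0.273% of all tested genes did. A gene of unknown function on the opposite strand inside COL5A1, ENSG00000286502, had 55, 42 and 58 counts in CP+siNC and 133, 114 and 93 in CP+siNAT10. It too was higher in every library with NAT10 siRNA, and since the sources used here do not say whether strand was used in counting, reads of the pair cannot be told apart. Its 495 counts over the 6 libraries stood beside 4299 of COL5A1.

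COL1A1, the main chain of type I collagen, stood at 10.4, 11.1 and 10.04 CPM in CP+siNC and at 12.8, 15.4 and 12.7 CPM in CP+siNAT10. The groups did not overlap, and replicate 2 of CP+siNAT10 was the highest library. Its log2 fold change was 0.37 (SE 0.0850) with a quasi-likelihood BH-adjusted p of 6.30e-04. COL27A1, a chain of cartilage and developing epithelia with a short helix, went the other way, from 29.2, 31.0 and 32.6 CPM in CP+siNC to 24.003, 21.3 and 20.6 CPM in CP+siNAT10. Every library with NAT10 siRNA was below every control, and the log2 fold change was -0.50 (SE 0.0602, quasi-likelihood BH-adjusted p = 6.66e-08).

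The other tested fibrillar chains had lower counts. COL11A2, a cartilage chain that can pair with type V chains, had means of 6.44 ± 0.246 CPM in CP+siNC and 5.41 ± 0.233 CPM in CP+siNAT10 (SD, n = 3). The groups did not overlap, but the log2 fold change of -0.25 missed the threshold (quasi-likelihood BH-adjusted p = 0.0560), and it passed at 0.0440 when only genes with 50 counts in 3 libraries were tested. COL5A2, the usual partner of the COL5A1 chain, had 3.19 ± 0.332 and 3.37 ± 0.377 CPM (SD, n = 3), overlapping groups and a log2 fold change of 0.09 with a 95% interval from -0.21 to 0.38. COL3A1, a fibroblast product that joins type I collagen in scars, had 6, 11 and 8 counts in CP+siNC and 12, 19 and 16 in CP+siNAT10. It met the count minimum only through the CP+siNAT10 group and 1 control library, and its log2 fold change of 0.70 had a 95% interval from -0.02 to 1.42 and a quasi-likelihood BH-adjusted p of 0.108.

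Among basement membrane chains, COL4A1 and COL4A2 encode the chains of the type IV network found in all basement membranes, and both rose. COL4A1 (ENSG00000187498) had 248, 269 and 259 CPM in CP+siNC and 315, 324 and 322 CPM in CP+siNAT10. COL4A2 (ENSG00000134871) had 322, 346 and 331 CPM in CP+siNC and 411, 427 and 413 CPM in CP+siNAT10. For both genes all libraries with NAT10 siRNA were above all controls, and replicate 2 was the highest library of each group. The log2 fold changes were 0.31 for COL4A1 (SE 0.0347, quasi-likelihood BH-adjusted p = 1.88e-08) and 0.32 for COL4A2 (SE 0.0343, BH-adjusted p = 5.17e-09 in the same test). COL4A5, a chain of specialised type IV networks of the kidney, had 1.14 ± 0.133 and 1.35 ± 0.271 CPM (SD, n = 3), with overlapping groups and a 95% interval of the log2 fold change from -0.24 to 0.73. COL4A3 and COL4A4, its partners in the glomerular network, and COL4A6, its partner in a separate network, had 11, 8 and 6 counts in all libraries together and were not tested.

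The COL4A1 and COL4A2 genes stand head to head on chromosome 13 and are read in opposite directions from a shared promoter. In the RefSeq promoter windows (GRCh38.p14) their start sites are 127 bases apart. The 126 bases between them are shown because both chains moved together. They lie at chr13:110307158-110307283, written on the strand of COL4A2, with a CCAAT box and a GC box in capitals:

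COL4A1 and COL4A2 shared promoter: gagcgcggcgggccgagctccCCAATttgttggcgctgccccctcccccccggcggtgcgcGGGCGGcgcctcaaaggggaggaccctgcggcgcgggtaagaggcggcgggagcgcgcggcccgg

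The stretch holds 1 match each to the CCAAT box (CCAAT) and the GC box (GGGCGG) and none to the TATA box (TATAAA), searched on both strands. Of all 35116 promoter windows of 300 bases in the same table, 34.6% hold the CCAAT letters, 45.0% the GC box and 11.5% the TATA box. Among 19 windows for 14 of the tested collagen chain genes, 15 hold the GC box, 6 the CCAAT box and 4 the TATA box. A match is a description of letters and not a measured site. In the deposited table the models of COL4A1 and COL4A2 overlap by 1320 bases, so reads from that stretch could be assigned to either. The head-to-head arrangement recurs in COL4A3 with COL4A4 and in COL4A5 with COL4A6, whose models are 171 and 366 bases apart, and there COL4A5 had 161 counts where COL4A6 had 6.

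Of the 10 FACIT genes 3 were tested, and 2 of these, COL12A1 and COL16A1, fell by similar amounts. COL12A1 (ENSG00000111799, chromosome 6 from 75084326 to 75205851), whose product bridges type I fibrils, had 54.2, 52.4 and 54.7 CPM in CP+siNC and 33.5, 35.3 and 34.6 CPM in CP+siNAT10. COL16A1 (ENSG00000084636, chromosome 1 from 31652263 to 31704017), found at the border of fibrils and basement membranes, had 25.1, 23.5 and 24.7 CPM in CP+siNC and 15.7, 16.3 and 15.1 CPM in CP+siNAT10. Both genes were lower in every library with NAT10 siRNA, at 64.2% and 64.4% of the control level. Their log2 fold changes were both -0.64, with SE 0.0453 and a quasi-likelihood BH-adjusted p of 1.52e-12 for COL12A1, and SE 0.0615 and 9.45e-10 for COL16A1. COL9A2, a chain of cartilage type IX collagen and the highest FACIT chain per length, had 12.4, 13.6 and 14.0 CPM in CP+siNC and 11.5, 12.5 and 12.6 CPM in CP+siNAT10. These values overlapped, and the log2 fold change of -0.13 was not called (quasi-likelihood BH-adjusted p = 0.184, 95% interval -0.29 to 0.03). The partners of COL9A2 in type IX collagen, COL9A1 and COL9A3, had 2 and 15 counts in all.

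Transmembrane collagens are anchored in the plasma membrane, and in HK-2 cells all 4 were near the limit of detection. COL17A1, the collagen of epithelial hemidesmosomes, was the only tested member, at 0.693, 0.793 and 0.832 CPM in CP+siNC and 0.664, 0.457 and 0.827 CPM in CP+siNAT10. The groups overlapped, and the 95% interval of its log2 fold change ran from -0.86 to 0.40, so a difference of either sign fits the values at this depth. COL13A1, COL23A1 and COL25A1 had 28, 5 and 4 counts.

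The beaded filament chains COL6A1 and COL6A2 and the anchoring fibril chain COL7A1 belonged to the most abundant members, and all were lower with NAT10 siRNA by small amounts. Type VI collagen forms beaded filaments between basement membrane and stroma. COL6A1 had 341, 332 and 347 CPM in CP+siNC and 297, 284 and 285 CPM in CP+siNAT10, and COL6A2 had 194, 206 and 196 CPM against 175, 183 and 178 CPM. Neither gene had overlapping groups. The log2 fold changes were -0.24 for COL6A1 (SE 0.0337, quasi-likelihood BH-adjusted p = 1.07e-06) and -0.15 for COL6A2 (SE 0.0349, BH-adjusted p = 6.78e-04 in the same test). COL6A3, whose large chain normally completes the type VI molecule, had 60 counts over the 6 libraries where COL6A1 had 39906.

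COL7A1 encodes the anchoring fibril that fastens an epithelial basement membrane to the stroma, and it held more counts than any other member. It had 524, 519.9 and 553 CPM in CP+siNC and 517, 497 and 462 CPM in CP+siNAT10. The groups did not overlap, but replicate 1 of CP+siNAT10 lay just under the lowest control. The log2 fold change was -0.11 (SE 0.0379, quasi-likelihood BH-adjusted p = 0.0151). The call depended on the processing: the BH-adjusted p was 0.0925 without replicate 3 of CP+siNC, 0.179 without replicate 3 of CP+siNAT10 and 0.118 with scaling by library size only, the sign staying negative under each. A microRNA gene inside COL7A1, MIR711, had 1451 counts on the same strand beside 65113 of COL7A1, and reads of this pair cannot be told apart.

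The short-chain network gene COL8A1 and the multiplexin COL18A1 were present at moderate levels and were not called. COL8A1, part of a hexagonal network around vessels and in Descemet's membrane, had 35.7, 41.9 and 41.8 CPM in CP+siNC and 38.8, 41.2 and 42.4 CPM in CP+siNAT10. COL18A1, a basement membrane collagen that releases endostatin, had 54.9, 55.9 and 57.9 CPM in CP+siNC and 52.6, 59.6 and 53.3 CPM in CP+siNAT10. Both genes had overlapping groups, with 95% intervals of the log2 fold change from -0.08 to 0.15 and from -0.13 to 0.07. SLC19A1 overlaps COL18A1 on the opposite strand with 2492 counts beside 7108, so the limit given for COL5A1 holds here too, as it does for COL16A1 (PEF1-AS1, 200 counts beside 2521) and COL1A1 (ENSG00000249406, 121 counts beside 1554). COL8A2, the partner of COL8A1, had 2.32 ± 0.162 and 2.41 ± 0.215 CPM (SD, n = 3) and a 95% interval from -0.28 to 0.40. COL10A1, the collagen of hypertrophic cartilage, and COL15A1, the other multiplexin, had 32 and 2 counts. COL28A1, the highest of the 2 remaining genes per length, had 6, 3 and 6 counts in CP+siNC and 3, 4 and 7 in CP+siNAT10, which overlap, and COL26A1 had 5 counts in all.

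**Figure D3:**
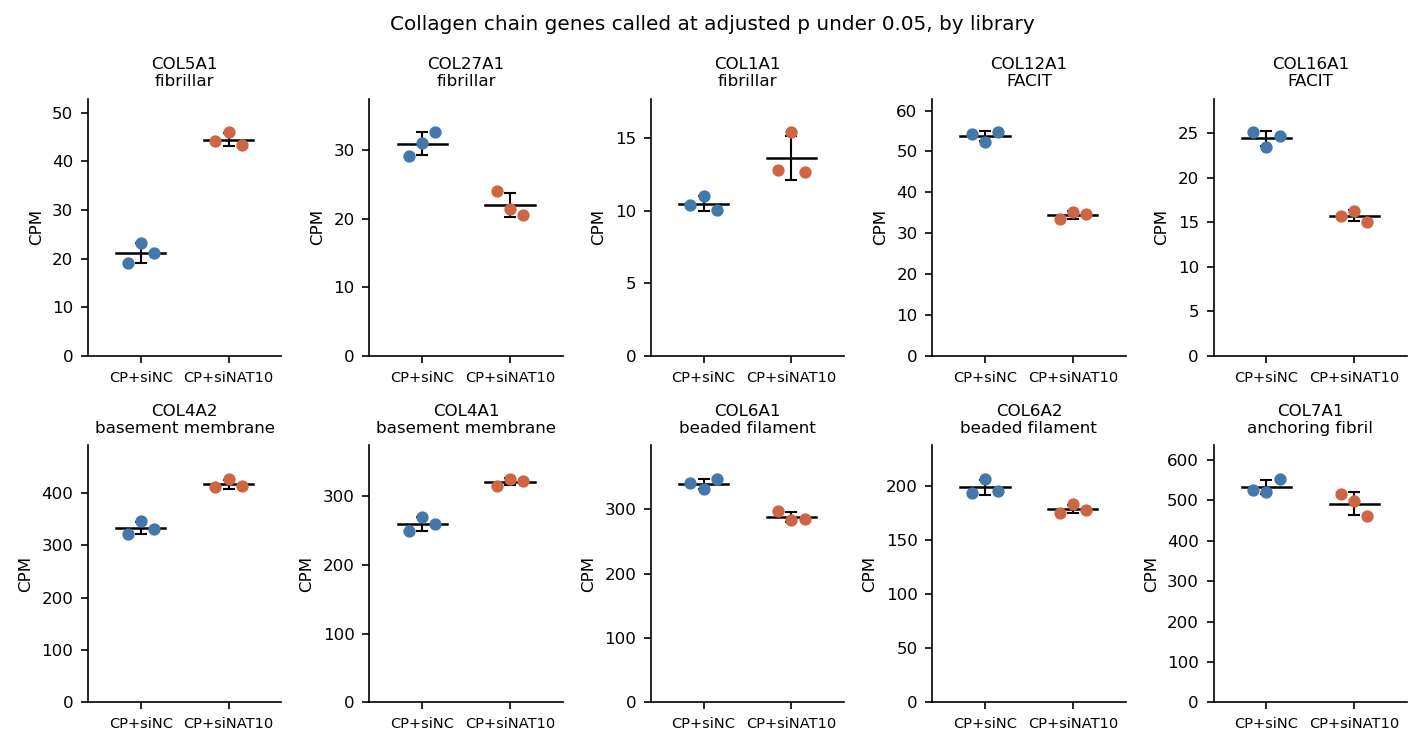
CPM in each library for the 10 collagen chain genes called at an adjusted p under 0.05; points are libraries, long lines the group means and bars 1 SD (n = 3), with every axis starting at 0. COL5A1 is the panel with the widest separation, from about 21.1 to 44.5 CPM, and COL7A1 the panel with the narrowest gap, whose call is lost when libraries are scaled by total counts only.

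The 25 untested genes held 0.147% of the collagen counts, and 23 of them had under 10 counts in every library. The members nearest to the count minimum were COL3A1 and COL17A1 inside it, and COL6A3 and COL6A6 outside it, each with at least 10 counts in 2 libraries. COL6A6, a type VI chain with limited tissue distribution, had 3, 3 and 6 counts in CP+siNC and 10, 9 and 13 in CP+siNAT10. These groups did not overlap, and without a filter the BH-adjusted p of COL6A6 in edgeR's quasi-likelihood fit was 0.0593. COL2A1, the collagen of cartilage, had 8, 6 and 3 counts in CP+siNC and 3, 1 and 0 in CP+siNAT10. The groups met at 3 counts and parted after scaling to library size, and in the same unfiltered fit COL2A1 was lower past both limits, with a log2 fold change of -2.17 and a BH-adjusted p of 0.0196 that rests on 21 counts. The other untested genes had between 2 and 20 counts unless given here: COL14A1 20, COL24A1 18, COL21A1 17, COL11A1 11, COL5A3 7, COL20A1 7, COL22A1 4, COL6A5 2 and COL19A1 2.

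Summed over all 44 genes, collagen chains took 1888, 1942 and 1959 CPM in CP+siNC and 1964, 1979.7 and 1911 CPM in CP+siNAT10. The groups overlapped, with means of 1929.7 ± 37.1 and 1952 ± 36.1 CPM (SD, n = 3). The difference of 21.9 CPM depended on the scaling and on COL7A1: it was 77.0 with scaling by library size only, and 62.3 without COL7A1, where the sums of 1397 ± 30.4 and 1459.7 ± 19.8 CPM no longer overlapped, a setting chosen after seeing the data. Within that total the classes shifted against each other. Basement membrane chains summed to 593 ± 22.5 CPM in CP+siNC and 739 ± 13.1 CPM in CP+siNAT10, so their share of collagen counts was 30.7% and 37.9%. Beaded filament chains went from 539 ± 4.27 to 468 ± 4.90 CPM, the anchoring fibril chain from 532 ± 17.9 to 492 ± 27.7 CPM and FACIT chains from 92.1 ± 1.63 to 62.8 ± 1.37 CPM (SD, n = 3). None of these class sums overlapped between the groups, and no test was made over members of a class. Fibrillar chains summed to 70.1, 75.5 and 74.1 CPM in CP+siNC and to 90.3, 93.3 and 86.2 CPM in CP+siNAT10. Every CP+siNAT10 library was above every control, and the rise of the mean sum was smaller than that of COL5A1 alone, since COL27A1 fell.

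The ratio of RPKM between chains of the same collagen type was taken in each library. These ratios compare RNA levels and do not give the composition of the collagen molecules. COL4A1 over COL4A2 was 1.01, 1.02 and 1.03 in CP+siNC and 1.01, 0.999 and 1.02 in CP+siNAT10. The groups overlapped, and both chains stayed level with each other while they rose; with transcript lengths the mean ratio was 0.763 ± 0.00577 in CP+siNC and 0.754 ± 0.00998 in CP+siNAT10, so its absolute value depends on the length used. COL5A1 over COL5A2 was 3.50, 5.00 and 4.68 in CP+siNC and 9.87, 8.25 and 8.10 in CP+siNAT10. These groups did not overlap, and the mean ratio was 1.99 times that of the control. COL6A1 over COL6A2, at 1.65 ± 0.0897 and 1.56 ± 0.0719, and COL8A1 over COL8A2, at 8.56 ± 1.16 and 8.42 ± 0.622 (SD, n = 3), overlapped between the groups.

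**Figure D4:**
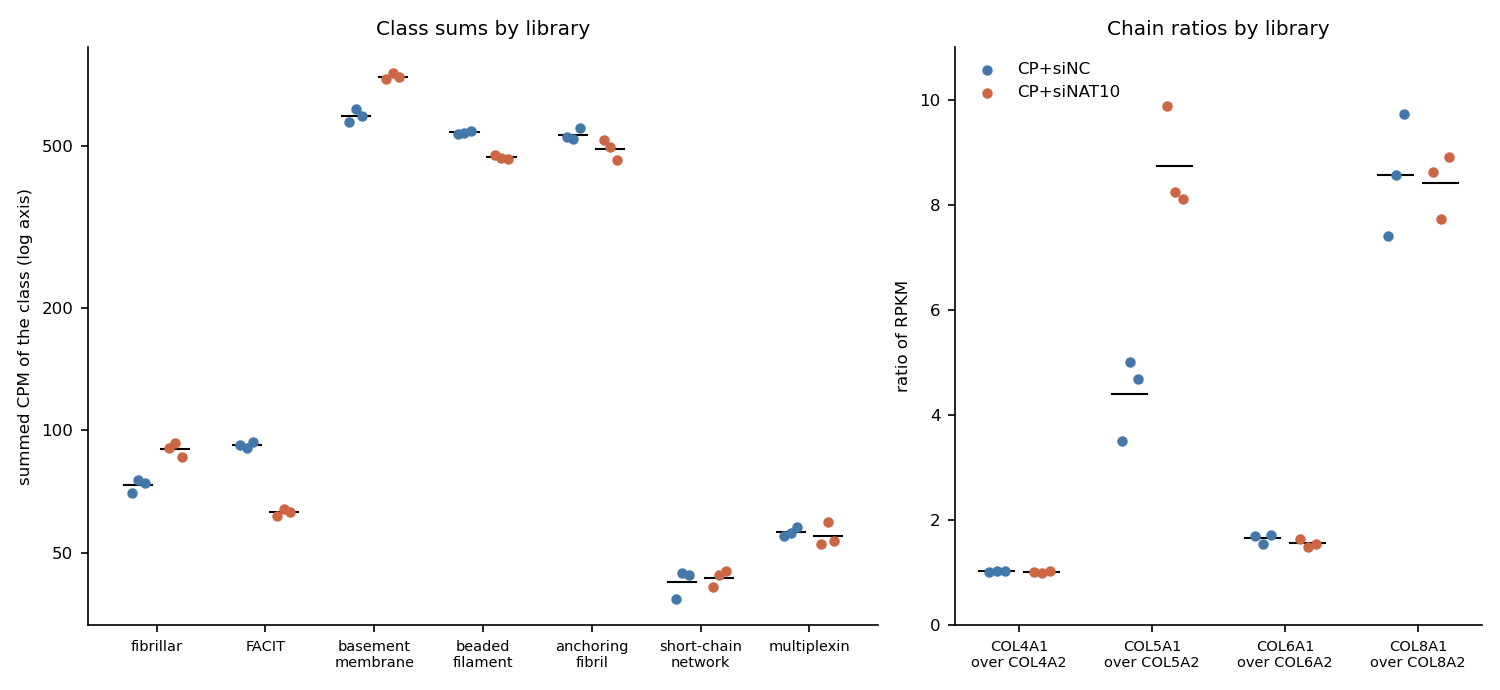
Left, CPM summed over the members of each class in each library on a log axis, leaving out the transmembrane and other classes, which sum to about 1 CPM or less; right, ratios of RPKM between chains of the same collagen type in each library. Points are libraries and lines are group means. The fibrillar, FACIT, basement membrane, beaded filament and anchoring fibril sums separate the groups, and the short-chain network and multiplexin sums overlap. The COL5A1 over COL5A2 ratio separates the groups, and the COL4A1 over COL4A2 ratio stays near 1.01.

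Earlier results of these data named 3 heptamers as more frequent in 3′ UTRs of genes that were lower with NAT10 siRNA, so they are not independent evidence here. Among 13143 tested protein-coding genes with an annotated 3′ UTR in GENCODE 29, 17.3% carry at least 1 of them, with a median log2 fold change of -0.09, against 0.03 for the others. Of the 19 tested collagen chain genes 1 carries a heptamer, COL8A2, which was not called. The match is shown because it is the sole one among the tested members; it lies at chr1:36095736-36095764 on the minus strand (GRCh38), in the 3′ UTR, with the heptamer in capitals:

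COL8A2 3′ UTR site: aggtcaaagccACTATCAtctgatgtgtt

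None of the 6 members called lower carries these letters in its longest 3′ UTR, among them COL12A1, COL16A1 and COL27A1.

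Collagen chains reach the matrix only after hydroxylation, folding, export, trimming and crosslinking, so 101 genes of these steps were compared in 9 lists. Of these 77 were tested, and 26 were higher and 26 lower with NAT10 siRNA at an adjusted p under 0.05, which is 33.8% in each direction, where 21.3% of all tested genes were higher and 22.4% lower. The lists were not matched to all genes for level. When only genes with 50 counts in 3 libraries were tested, 4038 were higher and 4142 lower of 14802. These are larger shares than those of all 20127 genes. The median log2 fold change of the 77 was 0.03, and no test was made over a list. In each list the 2 members with the smallest p are given with values, and the other called genes were named after their values were seen. Among 10 genes of prolyl hydroxylation, which stabilises the triple helix, 3 were higher (P4HA2, P4HB and PPIB) and 4 lower (CRTAP, P3H2, P3H4 and P4HA3). CRTAP, the helper protein of the prolyl 3-hydroxylase complex, went from 181 ± 0.267 to 72.5 ± 2.63 CPM (SD, n = 3), a log2 fold change of -1.32 (quasi-likelihood BH-adjusted p = 7.54e-22). P3H2, a prolyl 3-hydroxylase that acts on type IV collagen, went from 76.9 ± 2.73 to 50.6 ± 3.93 CPM, with a log2 fold change of -0.60 and a BH-adjusted p of 1.47e-11 in the same test. Prolyl 4-hydroxylase genes thus moved both ways, and so did the 3-hydroxylation branch, in which CRTAP, P3H2 and P3H4 fell, PPIB rose, and P3H1 and P3H3 were not called.

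Lysyl hydroxylation and glycosylation had 4 tested genes of 5, with COLGALT1 higher and PLOD3 lower. COLGALT1, which puts galactose on hydroxylysine, had 79.2 ± 1.33 and 92.1 ± 1.02 CPM (SD, n = 3), and PLOD3, a lysyl hydroxylase, had 58.5 ± 0.165 and 51.8 ± 1.08 CPM. Their log2 fold changes were 0.22 and -0.17, with quasi-likelihood BH-adjusted p of 1.67e-05 and 9.78e-04. In the list of chaperones and export factors, with 12 tested of 13, 6 were higher (KLHL12, SPARC, MIA3, PREB, SEC23A and SEC24D) and 2 lower (SERPINH1 and FKBP10). KLHL12, which enlarges the vesicles that carry procollagen, had 46.3 ± 2.39 and 59.3 ± 1.46 CPM (SD, n = 3), a log2 fold change of 0.36 (quasi-likelihood BH-adjusted p = 1.41e-07). SPARC, a collagen-binding glycoprotein, had 785 ± 16.7 and 932 ± 10.6 CPM, a log2 fold change of 0.25 (BH-adjusted p = 3.46e-07 in the same test).

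Procollagen processing enzymes, 5 tested of 10, had TLL1 and BMP1 higher and ADAMTS3, PCOLCE and PCOLCE2 lower, and MEP1A had no counts. TLL1 and BMP1 cut the C-terminal propeptides that keep procollagen soluble. TLL1 went from 3.99 ± 0.285 to 9.46 ± 0.951 CPM and BMP1 from 57.6 ± 2.14 to 68.5 ± 2.37 CPM (SD, n = 3), with log2 fold changes of 1.24 and 0.25 and quasi-likelihood BH-adjusted p of 1.90e-10 and 1.90e-05. Of 7 tested crosslinking enzymes LOX, TGM2, LOXL1 and LOXL3 were lower, and LOXL2, LOXL4 and PXDN were not called. LOX, which oxidises lysines of fibrillar collagen, went from 20.2 ± 0.541 to 7.39 ± 0.956 CPM and TGM2, a transglutaminase, from 165 ± 1.47 to 91.2 ± 1.75 CPM (SD, n = 3). Their log2 fold changes were -1.44 and -0.85, with quasi-likelihood BH-adjusted p of 1.30e-14 and 7.98e-18.

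Of the collagen receptors 9 of 14 were tested, with ITGB1, ADGRG1 and CD44 higher and MRC2, ITGA2 and DDR1 lower. MRC2, an endocytic collagen receptor, went from 59.1 ± 5.16 to 46.4 ± 1.201 CPM, and ITGA2, the collagen-binding integrin chain of epithelia, from 5.44 ± 0.554 to 3.52 ± 0.264 CPM (SD, n = 3). Their log2 fold changes were -0.35 and -0.61 (quasi-likelihood BH-adjusted p = 1.21e-06 and 1.95e-04). Of the degradation genes 11 of 16 were tested, with MMP1, TIMP2, MMP13, MMP15, CTSB and PEPD higher and MMP9 and MMP14 lower, and MMP8 had no counts. MMP1, the interstitial collagenase, went from 1.33 ± 0.0263 to 6.38 ± 0.194 CPM, and TIMP2, an inhibitor of such proteases, from 113 ± 2.95 to 140.2 ± 4.70 CPM (SD, n = 3). Every CP+siNAT10 library was above every control for both genes, with log2 fold changes of 2.26 and 0.31 and quasi-likelihood BH-adjusted p of 2.25e-13 and 4.88e-08.

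Among proteoglycans and glycoproteins bound to fibrils, 6 tested of 12, FN1 was higher and THBS1, THBS2 and FMOD were lower. FN1, the fibronectin on which cells lay down collagen, went from 859 ± 16.7 to 1395 ± 27.8 CPM, and THBS1, thrombospondin, from 135 ± 2.43 to 62.4 ± 2.59 CPM (SD, n = 3). Their log2 fold changes were 0.70 and -1.11, with quasi-likelihood BH-adjusted p of 3.24e-16 and 1.92e-19. The partners of type IV collagen in basement membranes were split: of 13 tested genes of 14, LAMA3, LAMC1, LAMC3 and HSPG2 were higher and LAMB3, NID1, LAMB1 and LAMB2 lower. LAMB3, a laminin chain of epithelial basement membranes, went from 104 ± 4.37 to 67.3 ± 0.754 CPM, and NID1, which links laminin to type IV collagen, from 58.8 ± 1.32 to 42.3 ± 0.197 CPM (SD, n = 3). Their log2 fold changes were -0.63 and -0.47, with quasi-likelihood BH-adjusted p of 1.12e-13 and 2.35e-10. COL4A1, COL4A2 and LAMC1 thus rose in the same libraries in which LAMB3 and NID1 fell.

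The labelled cell type was compared with marker lists, since collagen can come from other cells. Epithelial and renal lineage genes were present, with a sum of 2214 ± 27.1 CPM in CP+siNC and 2145 ± 11.7 CPM in CP+siNAT10 (SD, n = 3) over 10 genes, KRT8 the most abundant and no overlap between the groups, although CDH1 had 6 counts in all. Proximal tubule markers summed to 44.9 ± 0.820 and 41.0 ± 1.85 CPM over 10 genes, mostly GGT1, and the transporter SLC22A6 had no counts. LRP2, CUBN, SLC34A1, ANPEP and SLC22A8 had 3, 23, 34, 19 and 1 counts in all, so most of these markers were near 0. The proximal tubule sums did not overlap between the groups, and of the 4 tested genes GGT1 was lower and SLC5A2 higher (log2 fold changes -0.28 and 0.31, named after their values were seen). The 10 fibroblast and mural genes summed to 16.4, 16.04 and 15.3 CPM in CP+siNC and to 14.5, 18.3 and 15.4 CPM in CP+siNAT10. These sums overlapped, 0 of the 3 tested genes was called by edgeR (1 at an unadjusted p under 0.05, ACTA2, lower, chosen after seeing the values), LUM was the most abundant, and PDGFRA, DCN, POSTN and FAP had 8, 3, 4 and 1 counts in all. Most markers of fibroblasts were thus near 0 in both groups.

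The 6 endothelial genes summed to 0.845 ± 0.278 and 0.564 ± 0.118 CPM (SD, n = 3), with ESAM the most abundant and no overlap between the groups. The 6 leukocyte genes summed to 211, 199 and 217 CPM in CP+siNC and to 289, 266 and 269 CPM in CP+siNAT10. That sum was higher in every library with NAT10 siRNA and consisted almost wholly of CD68, a lysosomal protein that other cells also make, at 207 ± 9.63 and 272 ± 12.7 CPM (SD, n = 3). PTPRC, which is specific to leukocytes, was also called higher, from 0.419 ± 0.0515 to 0.823 ± 0.446 CPM on 81 counts in all (log2 fold change 0.95, quasi-likelihood BH-adjusted p = 0.0417). Its CP+siNAT10 libraries had 0.474, 1.33 and 0.670 CPM and the highest control 0.466 CPM, so replicate 2 carried most of the rise. The call was not repeated without that library, and PTPRC was named after its values were seen. The 4 podocyte genes summed to 69.8, 72.7 and 67.1 CPM in CP+siNC and to 48.3, 51.9 and 50.5 CPM in CP+siNAT10, mostly SYNPO, which was called lower, while PODXL, the other tested gene, was called higher (log2 fold changes -0.62 and 0.48, named after their values were seen). The part of these marker differences in the collagen results was not tested. In RNA from bulk cultures, fewer cells of a kind and less RNA per cell cannot be told apart.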

How the data were processed

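RNA of Cisplatin-treated HK-2 cells (3 CP+siNC and 3 CP+siNAT10 libraries, grouped and numbered from the labels) was made for the authors by a sequencing company into stranded mRNA libraries with molecular identifiers, aligned and counted on genes. The deposited values are raw counts per gene, with gene positions and lengths, and no normalization. The submitters' processing notes name Trimmomatic 0.36, STAR 2.5.3a, featureCounts of Subread 1.5.1, edgeR 3.12.1 and GRCh38. The kit adds the identifiers for correcting duplicates; whether the deposited counts were made after that step, and whether counting used strand, is not given in the sources used here.

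Genes with at least 10 counts in at least 3 libraries were kept (20127 of 62754, holding 99.8% of the counts of each library), and the whole table was fitted in R 4.3.3 with edgeR 4.0.16 (limma 3.58.1): TMM scaling, glmQLFit and glmQLFTest, with BH adjustment over all kept genes and no replicate term. The biological coefficient of variation was 3.02%. Standard errors are the log2 fold change over the root of F. CPM divides counts by the TMM-scaled library size, and RPKM divides CPM by the deposited gene length in kilobases. Counting noise alone does not cover the spread inside a group (chi-square per gene 1.72 to 2.52, against 18.1 to 22.5 across groups). Figures and summaries used Python 3.11.15, pandas 2.3.3 and matplotlib 3.10.9. The fit was also run on simulated data, and the outcome of that run is not given here.

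The 44 genes were found by symbol; all overlap their GENCODE 29 position. Promoters come from RefSeq windows of 250 bases before to 50 after each start. Members, classes and gene lists were chosen with earlier results of these data known. CTAGE5 of the export list was not found by symbol, and 2 planned list genes are not reported. Values in every library are given for members past both limits, the highest member per length of each class and the 10 members with the smallest p; other genes by the rule of 2 per list. Alternatives were RLE, upper quartile and library size scaling, filterByExpr, no filter, 50 counts in 3 libraries, a replicate block, DESeq2 1.42.0, edgeR's exact test, glmTreat, and leaving out each library.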

Additional observations from a re-analysis of the deposited data

How the results depend on the processing

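Over 15 alternatives to the scaling, filter, model, tool and libraries used, 273 of 281 fold changes of the tested collagen chain genes kept their sign and their side of the threshold, as did all 270 of the 18 named pathway genes, and NAT10 stayed between -0.85 and -0.79. The other 8 values belong to 5 genes near 0 or near the threshold. Without 1 library the log2 fold change of COL8A2 ran from -0.00863 (without CP+siNAT10 replicate 2) to 0.109, that of COL8A1 from -0.0335 (without CP+siNC replicate 1) to 0.0756, and that of COL18A1 from -0.0841 to 0.00482 (without CP+siNAT10 replicates 2 and 1), with 0.0111 under library size scaling. COL11A2 was called with 50 counts in 3 libraries. COL7A1 kept its sign and lost its call under 3 alternatives, with log2 fold changes of -0.07 to -0.09 there. The count of genes past both limits was 2 without a filter, where COL2A1 joined COL5A1, and 0 with edgeR's glmTreat against a 2-fold change, where 1 had an unadjusted p under 0.05 and 55 of all 20127 genes passed; the other tools, DESeq2 and the exact test, kept 1. Genes called lower ranged from 5 to 7, and genes called higher stayed at 4. The median log2 fold change of the tested genes was 0.0111 with library size scaling (all genes 0.0443, with 5055 higher and 3792 lower), -0.11 without a filter, -0.0731 with 50 counts in 3 libraries (fewer genes tested), and -0.0460 to 0.00482 when 1 library was left out. The difference in summed collagen CPM between the groups, 21.9, was 77.0 with library size scaling and 62.3 without COL7A1, a setting chosen after seeing the data; the cause was not tested. The fold of the COL5A1 over COL5A2 ratio ran from 1.80 to 2.13 when 1 library was left out. The replicate numbers do not pair the samples: deviations of same-numbered libraries correlated at 0.00673, 0.0663 and -0.20, the samples share only a number, and with the replicate block 4 and 6 collagen chain genes were called, with 4156 and 4389 of all genes. Not every sample correlated best with its own number. Depth limits the 25 untested genes and the wide intervals of COL3A1, COL4A5 and COL17A1.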
